A study of Mus musculus with 2 samples.

Results

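Heme transport and heme breakdown were followed through 10 mouse genes in erythroblasts, the nucleated red cell precursors that make hemoglobin. They were chosen by symbol for their role, and the rule used no measured value, though earlier results of these data were known. The genes were 6 heme and porphyrin transporters (Slc48a1, Flvcr1, Flvcr2, Abcg2, Abcb6 and Abcb10), 2 heme oxygenases (Hmox1 and Hmox2) and 2 biliverdin reductases (Blvra and Blvrb). All 10 were found by gene identifier among the 43346 Ensembl genes of the deposited tables, with 45 transcripts between them.

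The study has 1 group: Ter119+ primary cells from embryonic mouse liver at 14.5 days, pooled from males and females, profiled by paired-end sequencing of poly(A) RNA in 2 libraries that the labels number as biological replicates. Ter119 is a surface antigen of erythroid cells, and no strain, genotype or treatment is given in the labels. Both libraries carry the same donor entry but separate biosample entries, so part of their spread may be technical. With 1 group there was no comparison of conditions, and differences below are between library 1 and library 2 only.

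Heme is made in the mitochondrion and, in a red cell precursor, almost all of it is bound for globin. Heme that is not bound to protein damages membranes, so cells move it between compartments or export it through dedicated transporters. Heme oxygenase opens the heme ring and releases biliverdin, iron and carbon monoxide, and biliverdin reductase turns biliverdin into bilirubin. Macrophages that take up aged red cells are the best known site of this breakdown.

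Blvrb was the most abundant of the 10 genes, 28.7 times the next one, and Flvcr2 had no reads at all. Levels are given as TPM, an abundance that corrects for transcript length and has the same sum in each library. In decreasing order of mean TPM the genes were Blvrb, Slc48a1, Abcb10, Abcb6, Abcg2, Hmox1, Blvra, Hmox2, Flvcr1 and Flvcr2. Only the neighbours Abcg2 and Hmox1, and Blvra and Hmox2, had overlapping values in the 2 libraries. Of the 10 genes 7 reached 1 TPM in both libraries, a level reached by 10.4% of the 43346 genes and by 4296 of the 21474 protein-coding ones.

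**Figure D1:**
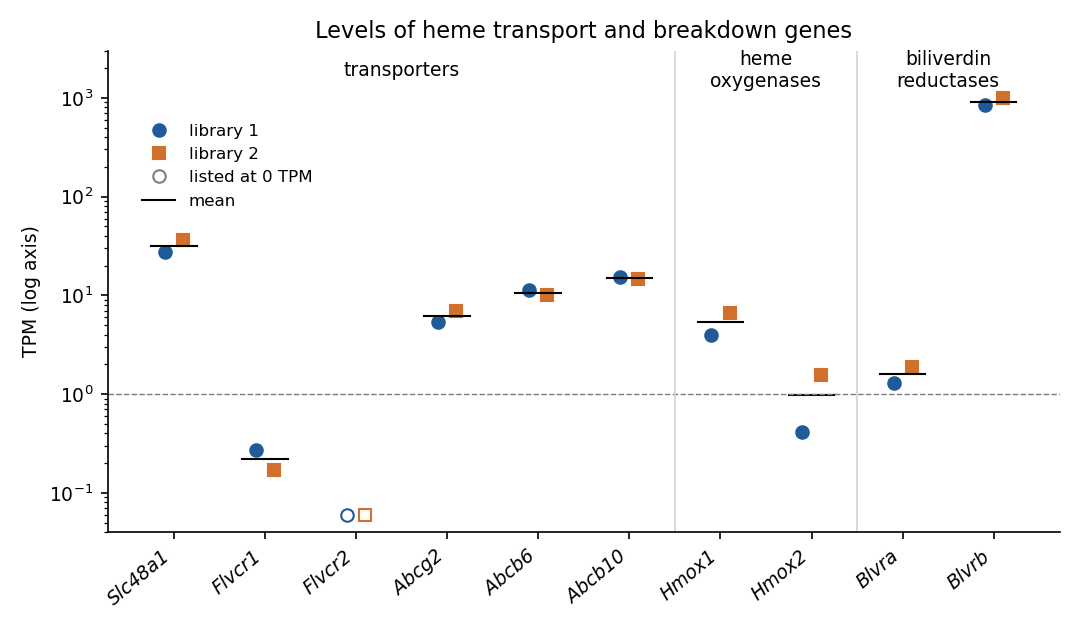
TPM of the 10 genes (log axis), grouped by role, with a circle for library 1, a square for library 2, a bar at the mean and a dashed line at 1 TPM. Open symbols at the foot mark Flvcr2, listed at 0 TPM; Blvrb, at 844 and 988 TPM, stands above all the others.

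Blvrb and Abcg2 each have more than 1 RefSeq start site with reads, and the 250 bases before those starts are printed because the deposited transcript values fall almost wholly to 1 start in Blvrb and are split between the starts in Abcg2. The windows are read 5′ to 3′ on the plus strand of GRCm38.p6 (mm10), and capitals mark CACCC or its reverse complement GGGTG, the core of the box that erythroid Krüppel-like factors such as Klf1 are known to recognise.
Blvrb, first start, chr7:27447728-27447977: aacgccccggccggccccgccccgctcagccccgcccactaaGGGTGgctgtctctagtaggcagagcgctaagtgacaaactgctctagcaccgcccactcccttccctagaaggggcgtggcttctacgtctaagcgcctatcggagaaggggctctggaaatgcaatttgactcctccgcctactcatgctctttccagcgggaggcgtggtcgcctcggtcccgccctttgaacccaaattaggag
Blvrb, second start, chr7:27452168-27452417: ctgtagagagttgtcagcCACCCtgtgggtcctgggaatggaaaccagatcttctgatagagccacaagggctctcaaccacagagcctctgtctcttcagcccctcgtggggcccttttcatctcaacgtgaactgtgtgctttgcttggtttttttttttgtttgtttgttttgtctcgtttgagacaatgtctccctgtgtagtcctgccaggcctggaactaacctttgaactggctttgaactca
Abcg2, upstream start, chr6:58596422-58596671: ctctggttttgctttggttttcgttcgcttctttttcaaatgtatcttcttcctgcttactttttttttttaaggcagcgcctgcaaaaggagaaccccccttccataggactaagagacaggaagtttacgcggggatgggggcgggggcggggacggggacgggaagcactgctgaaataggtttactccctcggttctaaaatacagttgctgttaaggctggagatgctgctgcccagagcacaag
Abcg2, downstream start, chr6:58640296-58640545: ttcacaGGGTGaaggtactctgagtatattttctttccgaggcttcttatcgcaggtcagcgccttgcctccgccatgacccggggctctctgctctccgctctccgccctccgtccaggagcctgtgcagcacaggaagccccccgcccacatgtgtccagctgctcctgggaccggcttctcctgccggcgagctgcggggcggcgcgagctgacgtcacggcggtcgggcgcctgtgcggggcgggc

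Transcripts that begin within 100 bases of the first Blvrb start held 99.8% of the Blvrb TPM in library 1 and 99.6% in library 2. The second Blvrb start, inside the gene, had 49.7 and 121 expected counts, or 0.18% and 0.42% of the TPM. In Abcg2 the division was closer. The upstream start held 27.9% and 24.3% of the TPM and 44.5% and 48.6% of the counts, and the downstream start held 69.8% and 75.4% of the TPM and 53.9% and 51.4% of the counts. One more RefSeq start of Abcg2, chr6:58584283-58584532, had no counts. The upstream share is that of Abcg2-201 alone, of 2492 bases as deposited and 5717 bases in GENCODE M21, which gave the start positions. The downstream share includes a retained-intron and a decay model. These shares divide reads among overlapping models, and no start was measured.

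RefSeq windows were found for 8 of the 10 genes, 13 windows in all, with none for Slc48a1 and Hmox1. CACCC, on either strand, occurred in 7 of the 13 windows, in 5 genes (Abcb10, Abcb6, Abcg2, Blvrb and Flvcr2), and in 52.0% of all 32851 mouse windows of that length. A GATA box, searched on both strands as AGATAA, its form ending in G, and the same pair beginning with T, occurred in 2 windows, the second of Blvrb and 1 of Hmox2, and in 26.5% of all windows. The start behind that Hmox2 window had 0 counts in both libraries. No Hmox2 window lay at the start of Hmox2-201, which held 92.4% and 78.3% of the Hmox2 counts, so that start was not searched. The NF-E2 core TGACTCA, on either strand, occurred in none of the 13, against 4.46% of all windows. TATAAA occurred in 1 window, of Abcb6, against 12.4% of all. No searched motif contains another, though matches may overlap. These are letter matches in the windows, and no binding was measured.

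Slc48a1 was the most abundant transporter. It encodes HRG1, which moves heme out of endolysosomes and is best known in macrophages that digest red cells. The gene lies on chr15:97778520-97792692 (plus strand) and had 27.8 TPM in library 1 and 36.0 TPM in library 2, from 6508 and 6574 counts (mean 31.9 ± 5.78 TPM, SD, n = 2, as for all means here). Library 2 was the higher, and Slc48a1 in both libraries lay above every other transporter.

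Abcb10 and Abcb6 followed. Abcb10, an ATP-binding cassette protein of the inner mitochondrial membrane that is needed for hemoglobin synthesis, lies on chr8:123952459-123983122 (minus strand) and had 15.5 and 14.7 TPM (6302 and 4666 counts), a mean of 15.1 ± 0.54 TPM. Abcb6, a porphyrin transporter that also carries the Lan blood group antigen, lies on chr1:75171717-75180392 (minus strand) and had 11.3 and 10.04 TPM (2697 and 1933 counts), a mean of 10.7 ± 0.89 TPM. Abcb10 was above Abcb6 in both libraries, with TPM ratios of 1.37 and 1.46. By transcripts of the GENCODE basic set alone, which leaves out partial models, the ratio was 1.72 and 1.73.

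Abcg2 encodes an exporter of many compounds, protoporphyrin among them. It lies on chr6:58584523-58695676 (plus strand) and had 5.37 and 6.96 TPM, from 772 and 625 counts, a mean of 6.165 ± 1.12 TPM. The TPM was higher in library 2 while the count was lower. Scaled for library size, the count ratio of library 2 over library 1 was 0.924, which did not pass the test described below. The mean transcript length in library 2 was 0.816 times that in library 1. TPM divides the count by an effective length, which is deposited separately and was not compared here. Slc48a1 and Abcb10, whose length was unchanged, also had TPM ratios above their scaled count ratios. How much of the Abcg2 difference between the scales goes with length was not tested.

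Both FLVCR genes were low. Flvcr1, described as a heme exporter of the plasma membrane and more recently as a choline transporter, lies on chr1:191005847-191026158 (minus strand) and had 0.27 and 0.17 TPM, from 34 and 17 counts, a mean of 0.22 ± 0.07 TPM. Flvcr2, its close relative, lies on chr12:85746539-85813585 (plus strand) and had 0 counts in both libraries. A count of 0 was read as at most 3 counts, which allows up to 0.0586 and 0.0678 CPM (counts scaled to library size). Slc48a1 thus exceeded Flvcr1 by 103 and 212 times in TPM. In RNA from many cells, fewer cells with a transcript and less of it per cell cannot be told apart.

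The heme oxygenases had single-digit TPM in both libraries, on a scale where globins hold most of the total. By mean TPM 9.63% of protein-coding genes were higher than Hmox1 and 21.5% higher than Hmox2. Hmox1, the enzyme that is induced by heme and stress, lies on chr8:75093621-75100589 (plus strand) and had 3.99 TPM in library 1 and 6.69 TPM in library 2 (357 and 470 counts), a mean of 5.34 ± 1.91 TPM. Hmox2, the constitutive enzyme, lies on chr16:4726361-4766742 (plus strand) and had 0.41 and 1.56 TPM (53 and 91 counts), a mean of 0.985 ± 0.81 TPM. The deposited lower and upper bounds of the posterior mean TPM of Hmox2 were 0.351 to 0.722 in library 1 and 1.23 to 2.20 in library 2. The headers give no level for these bounds. Hmox1 exceeded Hmox2 by 9.73 times in library 1 and 4.29 times in library 2, and by 5.94 and 5.42 times with basic-set transcripts alone. The gap between the libraries in this ratio was thus larger with all transcripts than with the basic set.

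The biliverdin reductases stood far apart. Blvrb, also called flavin reductase and long known as an abundant red cell protein, lies on chr7:27447978-27466144 (plus strand) and had 844 and 988 TPM (61326 and 62099 counts), a mean of 916 ± 102 TPM. It ranked 20 among protein-coding genes by mean TPM. Blvra, the reductase of the biliverdin that heme oxygenase makes, lies on chr2:127070665-127097084 (plus strand) and had 1.31 and 1.88 TPM (127 and 147 counts), a mean of 1.595 ± 0.40 TPM. Blvrb exceeded Blvra by 644 times in library 1 and 526 times in library 2.

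By role, the transporters summed to 60.2 and 67.8 TPM, the heme oxygenases to 4.40 and 8.25 TPM, and the biliverdin reductases to 845 and 990 TPM. The reductases therefore held 92.9% of the TPM of the 10 genes in each library, the transporters 6.62% and 6.36%, and the heme oxygenases 0.484% and 0.774%. Blvrb made nearly all of the reductase sum. The other 9 genes together had 65.9 and 78.0 TPM, against 910 and 1066 TPM for all 10.

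The transcripts of a gene divide its reads, and a short transcript weighs more in TPM than in counts. For 8 of the genes there were at least 50 counts in both libraries. The transcript with the largest share of TPM was the same in both libraries for 6 of them, and that with the largest share of counts for all 8. Abcb10 has a single transcript, and Slc48a1-201 held 100% of Slc48a1. Abcb6-201 held 79.3% and 84.6% of its gene's TPM, and Blvra-201 94.4% and 98.4%. The leading transcript of Flvcr1, Flvcr1-202, rests on 26.6 and 12 counts.

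Hmox1 led with a retained-intron model by TPM and with the coding one by counts. The model Hmox1-202 keeps bases of the last intron in GENCODE M21. It held 52.3% and 52.2% of the Hmox1 TPM, but 23.7% and 23.8% of the Hmox1 counts (84.6 and 112). The coding Hmox1-201 held 47.7% and 47.9% of the TPM and 76.3% of the counts in each library. The models part at the end of an exon on chromosome 8, base 75098865, after which Hmox1-202 runs on for 176 intron bases in GENCODE M21. The sequences around that point, from mm10 on the plus strand, are shown to give the letters that tell the models apart, with capitals for the 20 bases after the exon end.
Hmox1-201, spliced: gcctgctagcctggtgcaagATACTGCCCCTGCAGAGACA
Hmox1-202, intron retained: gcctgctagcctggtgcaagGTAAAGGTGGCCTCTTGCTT

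The length of Hmox1-202 is 556 bases in the deposited table and 774 bases in M21. The annotation used by the authors, GENCODE M4, was not used here, so the ends of their model were not compared. How many of the 176 intron bases the deposited model holds is therefore not known. In M21 Hmox1-202 also begins inside the gene, at base 75096844, so the models differ at their starts too. The shares were the same in both libraries to within 1 percentage point, on the scale of TPM as on that of counts.

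Hmox2 and Abcg2 changed their leading transcript between the libraries in TPM. In Hmox2, the coding Hmox2-201 held 76.7% of the TPM in library 1 and 37.5% in library 2, and Hmox2-206, a partial model of 354 bases, held 1.17% and 49.6%. The value for library 2 rests on 12.9 counts. Hmox2-205, of 584 bases, held 22.2% and 12.9%. By counts Hmox2-201 held 92.4% and 78.3%.

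In Abcg2 no transcript held a majority. The TPM of the retained-intron model Abcg2-203 was 29.5% and 27.8% of the gene, that of the coding Abcg2-201 27.9% and 24.3%, that of the coding Abcg2-202 23.0% and 6.87%, and that of the partial coding model Abcg2-207 (603 bases) 13.3% and 34.7%. Counts of Abcg2-202 were 246 and 74.3, and counts of Abcg2-207 were 32.2 and 85.9. With basic-set transcripts alone Abcg2 had 2.74 and 2.17 TPM, lower in library 2 as in the counts, and Hmox1 with 1.90 and 3.20 TPM then had the higher mean.

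Blvrb was almost wholly coding. Blvrb-201 held 57.7% and 73.1% of the TPM, Blvrb-203 17.3% and 16.4%, and the shorter Blvrb-204 (509 bases) 24.9% and 10.1%. Counts of Blvrb-204 were 7536 and 2833, while those of Blvrb-201 were 42201 and 49095. These 3 transcripts begin at the first start printed above.

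**Figure D2:**
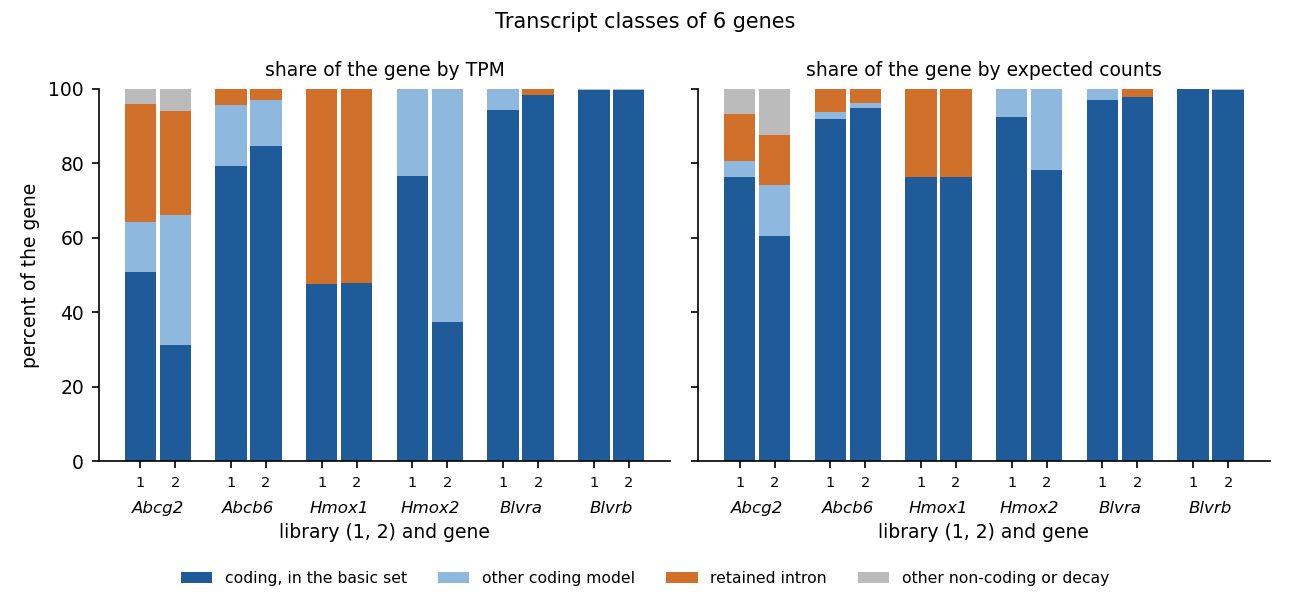
Percent of each gene held by its transcript classes in library 1 and library 2, by TPM (left) and by expected counts (right), for 6 genes. The retained-intron share of Hmox1 is 52.3% and 52.2% by TPM and 23.7% and 23.8% by counts, while Blvrb is almost all coding on both scales.

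Some of the 10 genes overlap other gene models, which the counting could divide, and the strand setting is not given in the sources used here. Abcb6 shares 8662 bases with Gm29253 on the same strand, which had 754 and 437 counts; the counts of Abcb6 were not whole, so part of its reads were divided with another model. Abcb10 lies within Gm20388 on the opposite strand (1371 and 1122 counts), and Hmox2 shares 16395 bases with Cdip1 on the opposite strand (104 and 61 counts). The counts of Abcb10 and Hmox2 were whole, so no reads were seen to be divided with these models, but without a stated strand setting the source of reads in the overlaps cannot be told apart.

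Of the 10 genes 6 differed between the libraries in counts, with ratios of library 2 over library 1 from 0.818 for Abcb6 to 1.96 for Hmox2. Expected counts were rounded and scaled for library size with edgeR's trimmed mean of M values. Each gene then had an exact conditional binomial test (two-sided), adjusted by the Benjamini-Hochberg method over 10955 genes with at least 10 counts, at a threshold of 0.05. With 1 library on each side the test covers counting error only and compares these 2 libraries. It called 44.2% of all genes tested, 22.0% higher and 22.1% lower in library 2. Of the 9 members tested, 6 were called, 4 higher and 2 lower. An unadjusted 0.05 was passed by 7 of them and by 5476 of the 10955 genes.

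Among the transporters, Slc48a1 was higher in library 2, with a ratio of scaled counts of 1.15 (exact 95% interval 1.11 to 1.19, adjusted p = 6.3e-15). Abcb10 was lower, at 0.845 (0.814 to 0.878, exact test, adjusted p = 4.4e-17), and Abcb6 was lower, at 0.818 (0.771 to 0.868, exact test, adjusted p = 1.7e-10). Abcg2 did not pass, at 0.924 (0.830 to 1.03, exact test, adjusted p = 0.25). Flvcr1 did not pass, at 0.571 (0.299 to 1.05, exact test, adjusted p = 0.14), with few counts. The transporters thus did not move in 1 direction.

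Both heme oxygenases were higher in library 2. Hmox1 had a ratio of 1.503 (1.31 to 1.73, exact test, adjusted p = 5.7e-08), and Hmox2 a ratio of 1.96 (1.38 to 2.80, exact test, adjusted p = 0.00044) from fewer than 100 counts in each library. In TPM the ratios were 1.68 for Hmox1 and 3.80 for Hmox2, and the mean transcript length of Hmox2 in library 2 was 0.616 times that in library 1. Blvrb was higher in library 2, at 1.16 (1.14 to 1.17, exact test, adjusted p = 8.7e-141). Blvra did not pass, at 1.32 (1.03 to 1.69, exact test, adjusted p = 0.055).

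The fold rule asked for a change past 1.5-fold in scaled CPM with a pseudocount of 1, among genes with at least 100 counts in 1 library. It took 11.9% of 5929 genes and 0 of the 7 members that could be taken, with Hmox1 nearest, at a log2 ratio of 0.53. Without the pseudocount Hmox1 had a ratio of 1.503, just past 1.5-fold, so its place under the rule rests on the pseudocount. Hmox2, under 100 counts, could not be taken. On TPM with the same pseudocount it took 10.7% of those genes and 1 of the 7 members, Hmox1, at a log2 ratio of 0.62. The mean transcript length of Hmox1 in library 2 was 1.002 times that in library 1. Slc48a1 and Abcb10, with unchanged length, also had higher log2 ratios by TPM (0.36 and -0.07) than by scaled CPM (0.20 and -0.24). The median log2 ratio was 0.20 over those 7 members and -0.01 over the 5929 genes, and the median size of the ratio, without its sign, was 0.24 and 0.23.

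**Figure D3:**
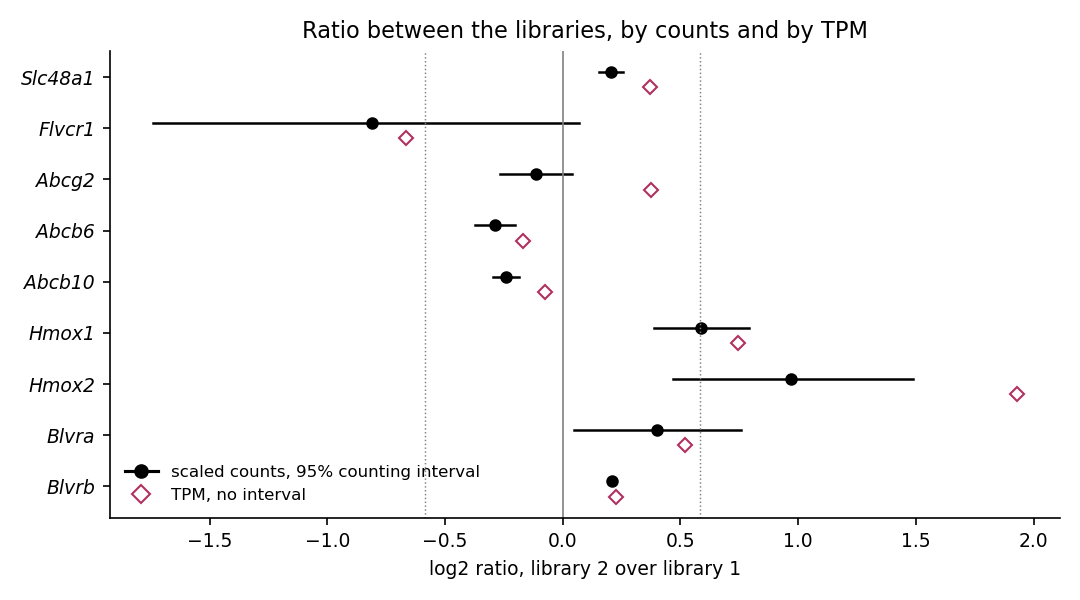
Log2 ratio of library 2 over library 1 for the 9 genes with counts. Filled circles are scaled counts with their exact 95% counting interval, open diamonds are TPM, and dotted lines mark 1.5-fold; the diamond of Abcg2 lies above 0 and its circle below, and the ratios are drawn without a pseudocount.

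The label of the cells was checked against markers. All 9 erythroblast markers reached 1 TPM in both libraries, led by Slc4a1, the band 3 anion exchanger (589 and 762 TPM), and Klf1 (367 and 405 TPM), with the transferrin receptor Tfrc lowest (6.90 and 6.13 TPM). Globins held 86.0% and 84.4% of the TPM, so that the levels of all other genes are shares of the small rest. With globins left out of the total, the mean of Blvrb was 6189 TPM, that of Slc48a1 215 TPM and that of Hmox1 35.7 TPM. Total expected counts were 51190555 and 44256287.

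Markers of macrophages, cells that break down heme, were low, and more were called higher than lower in library 2. Of 15 macrophage markers 4 reached 1 TPM in both libraries, and the 15 summed to 13.5 TPM in library 1 and 21.03 TPM in library 2. By the test above 4 of 12 tested were higher in library 2 and 1 lower, the latter at 13 and 2 counts. For 5 markers with at least 100 counts in 1 library the median log2 ratio was 0.45, against -0.01 over all such genes. Of these 5, 1 was past 1.5-fold higher and 0 lower, against 11.9% of all such genes in either direction. Over all genes tested 22.0% were called higher and 22.1% lower, and these shares also stand beside the hepatocyte and progenitor counts below. The complement genes C1qc (4.07 and 7.02 TPM) and C1qa (3.47 and 4.53 TPM) led. The hemoglobin receptor gene Cd163 had 2 and 0 counts, and the Fc receptor gene Fcgr1 0 and 1. The part of such cells in the levels of Hmox1, Hmox2 and Slc48a1 was not tested.

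Hepatocyte markers were also low. The 9 summed to 11.1 and 12.4 TPM and 2 reached 1 TPM in both libraries, with Apoa1 highest (6.01 and 8.05 TPM), Trf next (2.00 and 0.73 TPM) and Serpina1b at 0 counts. By the test, 3 were higher and 2 lower in library 2 of 8 tested. The 5 progenitor markers summed to 1.76 and 1.77 TPM, led by Spi1 (0.77 and 0.95 TPM) and Gata2 (0.85 and 0.78 TPM), with Mecom lowest at 5 and 0 counts; 1 of 4 tested was lower in library 2.

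The genes that make heme had a median level of 134 TPM, against 8.42 TPM for the transporters. The medians of the 2 heme oxygenases and of the 2 biliverdin reductases were 3.16 and 459 TPM. These differences were not tested. The 9 enzymes of heme synthesis summed to 1486 and 1730 TPM, and 8 reached 1 TPM in both libraries. Alad, which follows the first step, had 756 and 755 TPM and Alas2, the erythroid first enzyme, 204 and 270 TPM, while Alas1, the form of other tissues, had 0.29 and 0.49 TPM. By the same exact binomial test, used here and for the lists that follow, 5 of these 9 were higher and 3 lower in library 2. Over all genes tested it called 22.0% higher and 22.1% lower, shares to be read beside each list. Since the test covers counting error only, genes with many counts were called at small ratios, as the ferritin gene Ftl1 at a log2 ratio of 0.03. Of the 10 genes of transport and breakdown Blvrb alone exceeded Alad.

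Of 7 genes for mitochondrial steps of heme supply, 5 reached 1 TPM in both libraries, 4 were higher and 1 lower in library 2. Slc25a39, a carrier of glutathione into mitochondria, had 588 and 838 TPM and the iron importer mitoferrin-1, Slc25a37, 226 and 202 TPM.

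Of 10 partners of heme oxygenase and genes of iron storage, handling or exit, 8 reached 1 TPM in both libraries, 5 were higher and 1 lower. The ferritin chains Fth1 (4378 and 3917 TPM) and Ftl1 (3695 and 4155 TPM) led. Counts of Ftl1 were not whole, so part of its reads were divided with other models. The heme-binding protein gene Hebp2 had 0 counts.

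Of 9 heme-responsive or partner regulators, 6 reached 1 TPM in both libraries, 1 was higher and 5 lower. The erythroid factor Nfe2 had 50.1 and 56.9 TPM, and its small Maf partner Mafk 22.2 and 22.5 TPM. Both were among the 5 called lower by counts (log2 ratios of scaled CPM -0.12 for Nfe2 and -0.16 for Mafk), while their TPM was higher in library 2. Bach2, a relative of the heme-binding repressor Bach1, was lowest, at 10 and 0 counts.

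Genes of bilirubin disposal and plasma heme scavenging were low. Of 8 genes 1 reached 1 TPM in both libraries, Lrp1, a receptor for heme bound to hemopexin (2.16 and 2.61 TPM). The efflux transporter Abcc3 had 0.19 and 0.62 TPM, and the liver uptake transporter Slco1b2 had 0 counts. By the test 2 of 3 tested were higher in library 2 and 0 lower.

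Among 13 close relatives of the transporters and related carriers, 6 reached 1 TPM in both libraries, 5 were higher and 2 lower of 9 tested. Tspo2, an erythroid protein related to Tspo, had 37.8 and 122 TPM and Tspo, a protein of the outer mitochondrial membrane, 74.3 and 68.1 TPM. The sterol transporter gene Abcg5 and Slc49a3, of the FLVCR family, had 0 counts. Tspo2 had a log2 ratio of 1.56 between the libraries on the scaled CPM scale, larger than that of any of the 10 members.

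**Figure D4:**
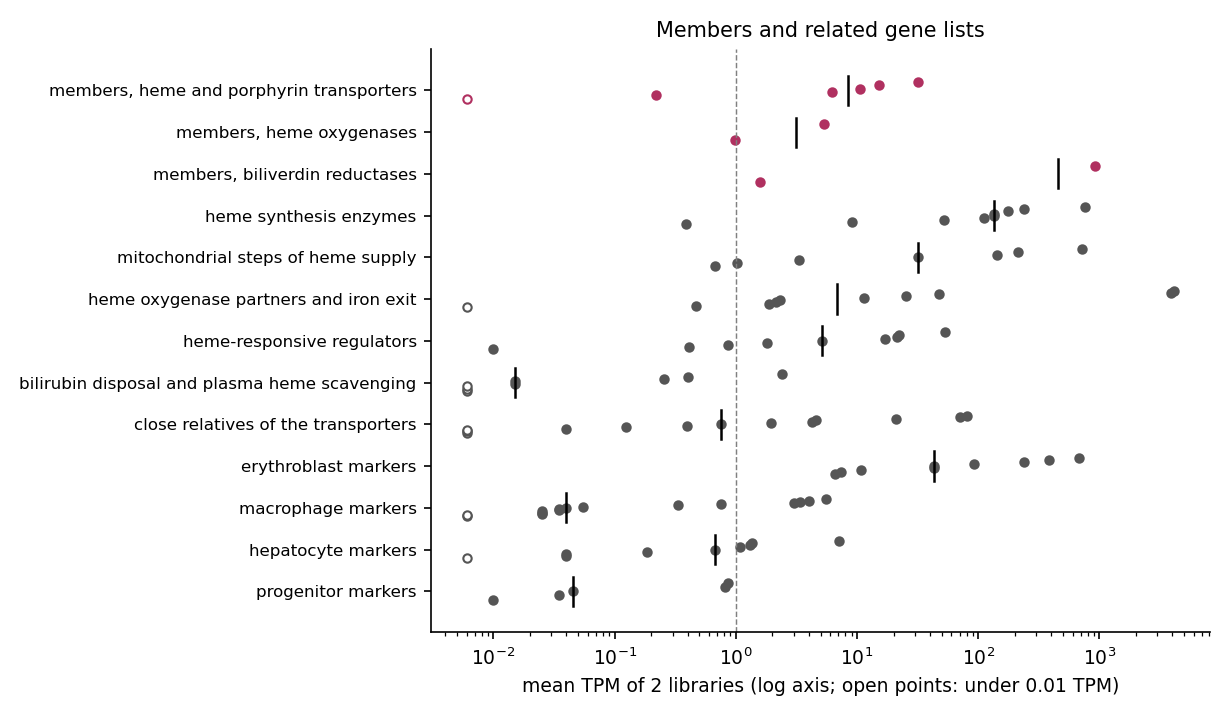
Mean TPM of the 2 libraries (log axis) for each gene of the members, by role, and of the related and marker lists. A tick marks each list's median and open points are means under 0.01 TPM. The biliverdin reductases lie further apart than the heme oxygenases. The median of the heme synthesis enzymes is 134 TPM, against 8.42 TPM for the transporters and 459 TPM for the 2 biliverdin reductases.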

How the data were processed

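Poly(A) RNA was measured in 2 libraries of 1 group. The deposited listing names mm10 and GENCODE M4. The aligner, the quantifier and how strand was treated were not given in the sources used here. RSEM writes columns of these names, which were read per the file headers. The deposited expected counts need not be whole, since reads that match several models were divided. The authors also deposited TPM, FPKM, posterior mean TPM with a lower and upper bound (used as a signal), and the percent of each gene's TPM held by each transcript. Rows without an Ensembl identifier held 0 counts.

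The 10 genes and all lists were chosen with earlier results of these data known. All 10 genes are named, with the 2 highest and 1 lowest of each other list by mean TPM, any marker at 0, and each gene's leading transcript and others with 20% or more in either library. Of the genes that this rule takes, 1 is not reported here. The test took rounded expected counts and used edgeR 4.0.16 factors (0.993 and 1.01) in R 4.3.3 and scipy 1.17.1, and was tested on simulated data. Intervals are exact (Clopper-Pearson) and cover counting error only. Symbols and positions came from GENCODE M21 on the same assembly, in which 40 of the 45 transcripts had the deposited length. Promoter windows came from RefSeq (GRCm38.p6). Alternatives were DESeq2 1.42.0 size factors, total or posterior mean counts, other minima, FPKM, posterior mean TPM, CPM, TPM without globins, and each library alone. Basic-set TPM and role shares without Blvrb were added after the data were seen.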

Additional observations from a re-analysis of the deposited data

How the results depend on the processing

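The 6 calls between the libraries, and the direction of the 9 genes with counts, were kept in the 5 other scalings and filters of the counts. By TPM, Abcg2 was higher in library 2 and not lower. Blvra was also called with total counts (adjusted p = 0.043 by the exact binomial test) and with a minimum of 100 counts (0.045), and its adjusted p ranged from 0.043 to 0.078. Of the gene levels, 20 values moved by more than the SD between the libraries: 9 without globins (Blvrb 6189, Slc48a1 215 and Hmox1 35.7 TPM), 8 by CPM and 3 with basic-set transcripts. CPM is another unit and TPM without globins has another total, so those moves were built into the settings. Each of 2 libraries always lies within their SD of the mean. For levels, shares and ratios, a library alone therefore could not count as moved. The shares, ratios and counts that moved were as follows. By CPM, which is not corrected for length, the transporters' mean share of the 10 genes was 19.4%, the biliverdin reductases' 79.9%, the Blvrb to Blvra ratio 453 and the Abcb10 to Abcb6 ratio 2.38. By posterior mean TPM the reductases' share was 92.8%. With basic-set transcripts alone the Abcb10 to Abcb6 ratio was 1.73, and without Blvrb the transporters' share was 89.2%, both chosen after seeing the data. By TPM 1 gene, Hmox1, passed 1.5-fold, and TPM ratios were also above count ratios for Slc48a1 and Abcb10, whose length was unchanged. The scaled count ratio of Hmox1 without the pseudocount, 1.503, was also just past 1.5-fold. The order of levels was the same except with basic-set TPM, where Hmox1 stood above Abcg2. The number of genes detected ran from 5 at 5 TPM to 9 without globins. No paired analysis was possible because there is 1 group. Flvcr1, Hmox2 and Blvra have few counts, and the exact intervals give what that depth allows.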
